A study of Oryctolagus cuniculus with 27 samples.

Results

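The genes described here are 9 that set the balance of phosphate and pyrophosphate at sites of mineral formation: ALPL, PHOSPHO1, ENPP1, ANKH, NT5E, ABCC6, SLC20A1, SLC20A2 and KL. They were looked up by symbol among the 31346 genes of each count table, and all 9 were listed for every tissue. The data are bulk RNA-seq libraries from 27 tissue samples of wild-type male New Zealand rabbits, a species that develops cholesterol-rich and calcified lesions of the aortic valve when fed cholesterol and vitamin D. Treated animals ate chow with 1% cholesterol and received ergocalciferol (vitamin D2) at 3500 IU per kg and day, and controls ate normal chow. Aortic valve cusps were sampled from controls and after 2, 4 and 7 weeks of the diet (n = 4 each). Ascending aorta (3 control, 2 diet) and myocardium (3 control, 3 diet) were sampled beside the valve. The labels give no duration of diet for aorta and myocardium, and by the animal numbers all 3 diet myocardium libraries came from 7-week valve animals. The titles place 3 of the control valves at 7 weeks and 1, replicate 4, at 2 weeks. The series text instead speaks of controls pooled from 2 and 4 weeks, so control age is uncertain. Each valve library is the dissected tissue of 1 animal as a whole, and in such bulk tissue fewer cells of a type and less RNA per cell cannot be told apart.

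Pyrophosphate binds to nascent hydroxyapatite crystals and stops their growth, whereas free phosphate is their building block, so tissues that resist calcification keep the ratio of pyrophosphate to phosphate high. ENPP1 splits extracellular ATP into AMP and pyrophosphate, ANKH and ABCC6 mediate release of ATP or pyrophosphate from cells, and NT5E (CD73) turns the AMP into adenosine and phosphate. ALPL, tissue-nonspecific alkaline phosphatase, destroys pyrophosphate and releases phosphate at the cell surface and on matrix vesicles, and PHOSPHO1 releases phosphate inside those vesicles. SLC20A1 (PiT-1) and SLC20A2 (PiT-2) carry phosphate into cells with sodium. KL, alpha-klotho, is the co-receptor through which the bone hormone FGF23 lowers phosphate, and its main site is the kidney. Inherited loss of ENPP1, NT5E or ABCC6 causes arterial calcification, and loss of KL causes hyperphosphataemia with vascular calcification.

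The libraries held 8458453 to 19998954 counts. Levels are given as CPM, counts scaled to an equal library total, and 3 counts, taken as the floor of detection, stood at 0.150 to 0.355 CPM. The shallowest library, 7-week replicate 2, had low CPM for several of the 9 genes and the lowest scaling factor (0.784). Markers of the labelled tissues were present: the summed CPM of 11 cardiomyocyte genes was 74498 to 106130 in myocardium, and that of 7 smooth muscle genes was 52146 to 62867 in aorta. Valve libraries also held counts of the heart muscle genes, with cardiomyocyte sums of 8647 to 38674 CPM in controls, 1418.5 to 6308 after 2 weeks, 2808 to 26654 after 4 and 9152.5 to 40880 after 7 weeks. The summed CPM of 11 macrophage markers was 183 to 309.5 in control valves. After 2, 4 and 7 weeks it was 109.8 to 265, 347 to 1572 and 815 to 1166. Smooth muscle sums were 20090 to 35945, 28625 to 44412, 14056 to 28372 and 8835 to 14924 CPM in the same order. The sum of 4 atrial muscle markers was 4.10 to 13.7 CPM in control valves and 444 to 4812 at 7 weeks. The library names carry running numbers that are consecutive within the control, 2-week and 7-week valve groups and for 3 of the 4 libraries of 4 weeks. Which libraries shared a sequencing run is not given, so order or run and group cannot be told apart. Some numbers of valve libraries recur in aorta or myocardium libraries, so the tissues were not all numbered together. Order or run and tissue cannot be told apart either.

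**Figure D1:**
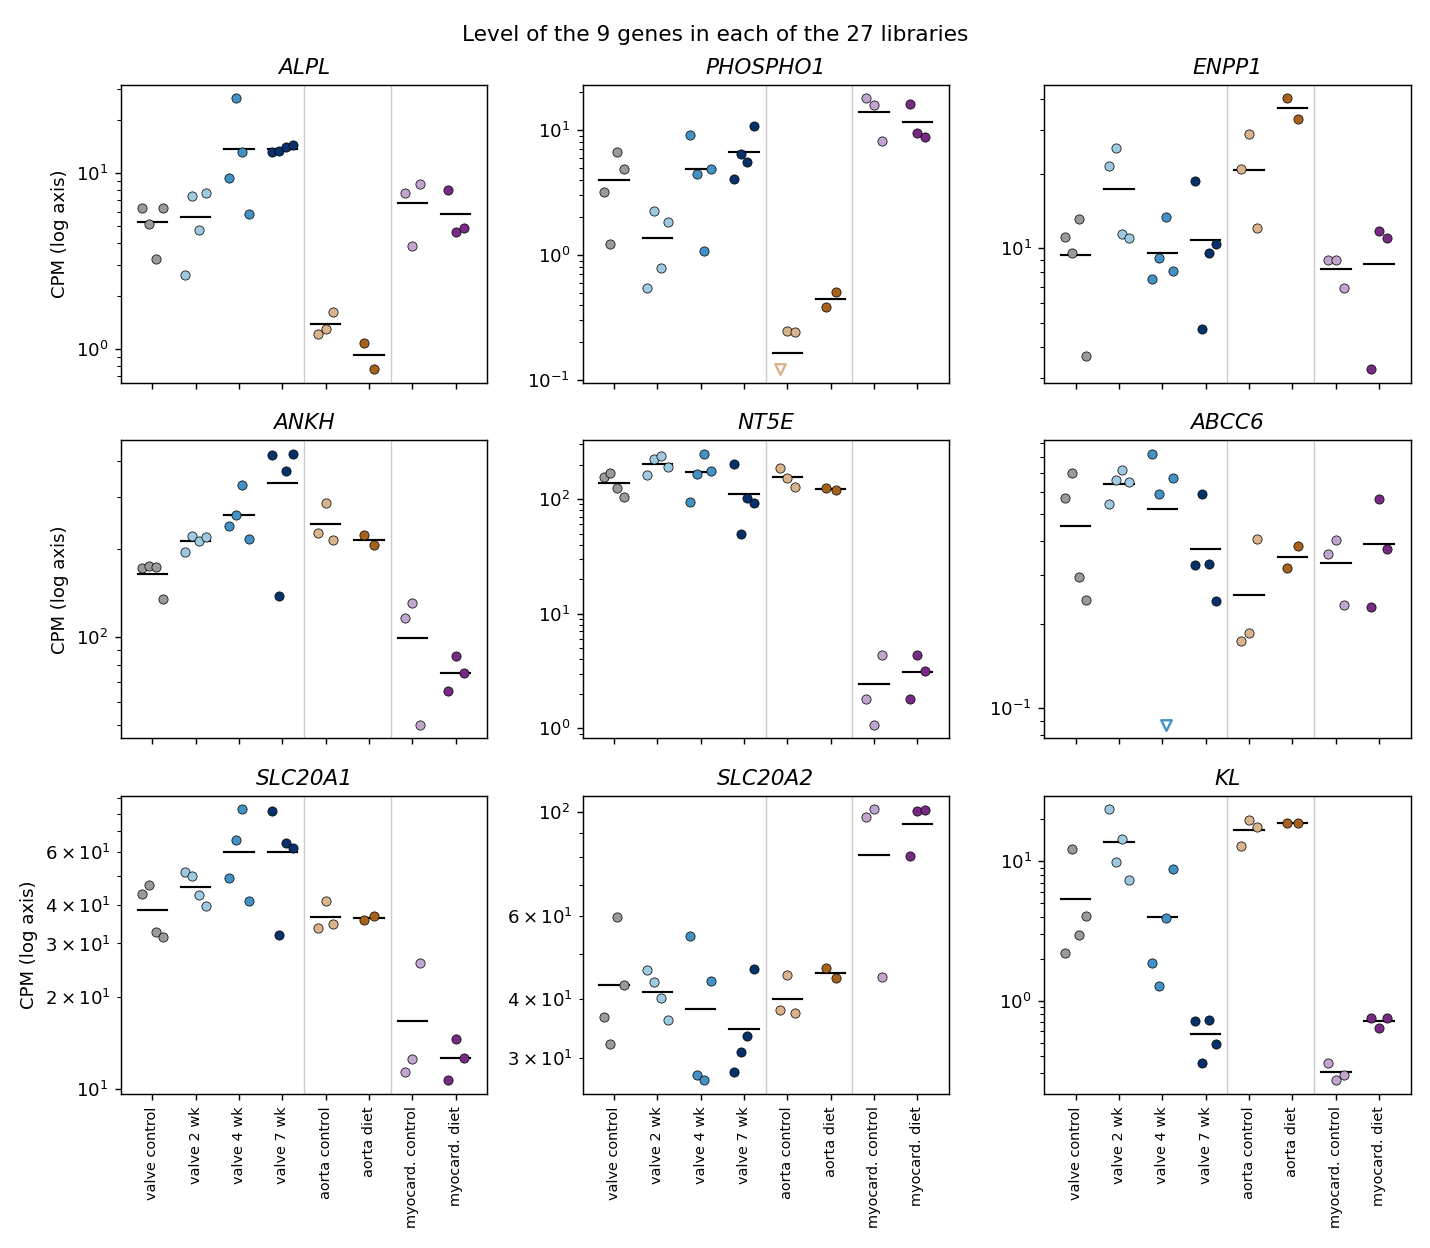
CPM of each gene (log axis) in every library by group, with the group mean as a bar and a library at 0 counts as an open triangle below the lowest value. KL at 7 weeks (0.355 to 0.729 CPM) lay below all control valves, ALPL at 7 weeks (13.0 to 14.4 CPM) lay above them, and ANKH did so in 3 of 4 libraries.

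After 7 weeks of diet, 3 of the 9 genes changed in the valve: KL fell, and ANKH and ALPL rose. KL was 9.19-fold lower, ANKH 1.97-fold higher and ALPL 2.61-fold higher than in control valves by edgeR's quasi-likelihood test, with adjusted p below the threshold of 0.05 over 15973 genes. In that comparison 7.79% of all genes tested were called, 830 higher and 415 lower. The median log2 fold change of the 9 genes was 0.14 (all genes, -0.01). CPM of the 7-week and control groups did not overlap for 2 of the 9, ALPL and KL, beside 11.3% of all genes. DESeq2 called 4 of the 9, the fourth being SLC20A1.

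At the earlier times none of the 9 genes passed. After 2 weeks 0 of 9 were called, where 0.0250% of all genes were called. At an unadjusted p under 0.05 there were 3 (KL, PHOSPHO1 and ENPP1), beside 2622 of the 15973 genes tested, and DESeq2 called 0. After 4 weeks 0 of 9 were called, where 2.00% of all genes were called. There were 3 at an unadjusted p under 0.05 (ALPL, ANKH and SLC20A1), beside 2040 of the 15973 genes, and DESeq2 called 1 (ALPL). ANKH was the single gene of the 9 whose diet and control libraries did not overlap at 2 weeks, beside 1602 of the 15973 genes tested, and at 4 weeks, beside 6.91% of them. The 3 comparisons with control share the same 4 control libraries, so their values are not independent.

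**Figure D2:**
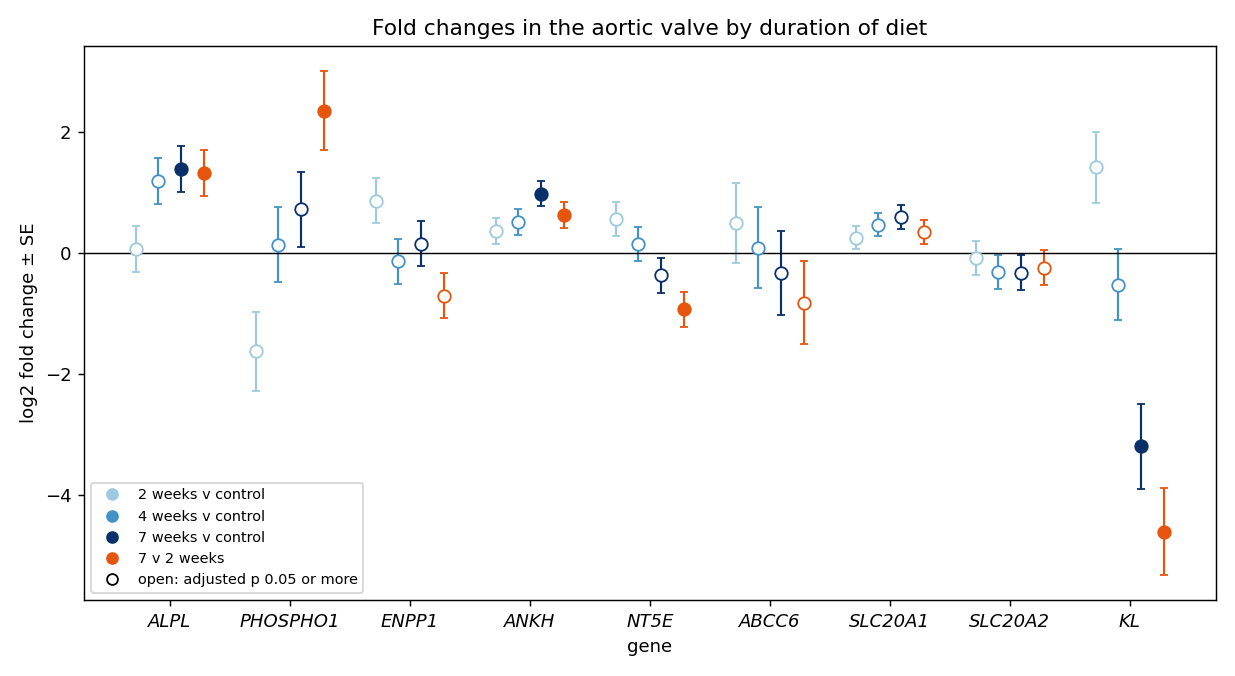
Log2 fold change ± SE of the 9 genes in the valve at 2, 4 and 7 weeks against control and at 7 against 2 weeks, filled where the adjusted p was under 0.05. KL moved from 1.41 at 2 weeks to -3.20 at 7 weeks, and ALPL from 0.06 to 1.38.

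Control levels do not enter the comparison between 7 and 2 weeks, but the controls share in its filter, scaling and estimate of spread. There 5 of the 9 genes changed, where 26.7% of all genes were called: KL and NT5E fell, and PHOSPHO1, ALPL and ANKH rose. The groups did not overlap for 3 of them, KL, ALPL and PHOSPHO1, beside 20.5% of all genes. A fit of only these 2 groups called 3 of the 9, beside 3062 of the 15155 genes tested. Between 4 and 2 weeks 0 of 9 were called (4.36% of all genes). At an unadjusted p under 0.05 there were 4 of the 9, beside 3147 of the 15973 genes tested, and DESeq2 called 2, ALPL and KL. Between 7 and 4 weeks 0 of 9 were called (0.100% of all genes). At an unadjusted p under 0.05 there were 2 of the 9, beside 1921 of the 15973 genes, and DESeq2 called 1, KL.

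ALPL, the phosphatase that removes pyrophosphate, stood at 6.27, 5.12, 3.26 and 6.34 CPM in the 4 control valves. After 2 weeks it was 2.63, 7.37, 4.76 and 7.65 CPM, and the groups overlapped. After 4 weeks it was 9.37, 26.4, 13.1 and 5.82 CPM, with replicate 2 far above the others and replicate 4 within the control range. After 7 weeks it was 13.0, 13.2, 14.04 and 14.4 CPM, all above the highest control (13.7 ± 0.650, SD, n = 4, against 5.25 ± 1.44 in controls). CPM leaves out the scaling factors of the fit, which were 0.784 to 1.13 at 7 weeks. The SD is thus not the spread after scaling. These levels rested on 34 to 269 counts per valve library.

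The log2 fold change of ALPL against control was 0.06 ± 0.38 (here and below ± SE of the fit) at 2 weeks and 1.19 ± 0.38 at 4 weeks (edgeR adjusted p = 0.141). At 7 weeks ALPL rose by 1.38 ± 0.38 (adjusted p = 0.0400), and it rose by 1.32 ± 0.38 between 2 and 7 weeks (adjusted p = 0.0210). The 7-week call held in 1 of the 8 fits that each left out a library, the one without 7-week replicate 1, and in the other 7 the adjusted p was 0.0578 to 0.116 with a log2 fold change of 1.23 to 1.52. Without 4-week replicate 4, ALPL passed at 4 weeks too (1.43 ± 0.36, adjusted p = 0.0321). The rise from 2 to 7 weeks was no longer called without 7-week replicate 2 or without 2-week replicate 1 or 3 (adjusted p = 0.0516 to 0.0617).

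ALPL moved with the macrophage markers, but neutrophil and lymphocyte markers moved with it too. In 4-week replicate 4, whose ALPL was lowest of its group, the macrophage sum was 347 CPM against 857 to 1572 CPM in the other 3. The highest macrophage sum of that group was in replicate 3, whereas ALPL was highest in replicate 2. Neutrophil and lymphocyte sums were also highest in replicate 2 (11.99 and 26.5 CPM) and lowest in replicate 4 (2.39 and 6.72 CPM). Of 11 macrophage markers tested, 9 rose and 0 fell at 7 weeks, and none was at 0 in any group. With the mean log2 level of those markers as a covariate, a fit added after the data were seen, ALPL at 7 weeks was -0.25 ± 0.55, and 0 of 15973 genes passed in that fit. With the smooth muscle markers as the covariate ALPL was 0.36 ± 0.47, again with 0 genes passing. At 7 weeks macrophage sums lay above, and smooth muscle sums below, all control sums. These scores and the group can therefore hardly be told apart. Neutrophil sums were 0.896 to 3.26 CPM in control valves and 5.45 to 23.7 CPM at 7 weeks. Of 3 neutrophil markers tested 3 rose at 7 weeks, and of 5 lymphocyte markers 2 rose. Whether the ALPL reads came from macrophages, neutrophils or other cells was not tested.

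PHOSPHO1, the phosphatase of matrix vesicles, was at 3.20, 1.22, 6.66 and 4.87 CPM in control valves. After 2 weeks it was 0.542, 2.26, 0.783 and 1.85 CPM, on 7 to 37 counts, overlapping the lowest control. After 4 weeks it was 9.16, 4.42, 1.07 and 4.89 CPM, and after 7 weeks 4.04, 6.38, 5.56 and 10.7 CPM. The 7-week libraries lay above all 2-week libraries but overlapped the controls. Against control its log2 fold change was -1.63 ± 0.65 at 2 weeks (adjusted p = 0.211), 0.13 ± 0.61 at 4 weeks and 0.72 ± 0.62 at 7 weeks (adjusted p = 0.486).

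Between 2 and 7 weeks PHOSPHO1 rose by 2.35 ± 0.65 on the log2 scale, or 5.08-fold (adjusted p = 0.0176). The call was lost without 7-week replicate 4 or 2-week replicate 1 or 3 (adjusted p = 0.0529 to 0.0542). PHOSPHO1 moved with the cardiomyocyte markers: it was lowest in 2-week replicate 1, where the cardiomyocyte sum was lowest (1418.5 CPM). Within the 7-week group the cardiomyocyte sum was highest in replicate 2 (40880 CPM), whereas PHOSPHO1 was highest in replicate 4 (10.7 CPM). Of 11 cardiomyocyte markers, 8 rose and 0 fell between 2 and 7 weeks. With the cardiomyocyte score as a covariate the rise was 0.19 ± 0.45 (adjusted p = 0.868), and the 2-week difference from control turned from -1.63 to 0.74 ± 0.49. The cardiomyocyte sums at 2 weeks lay below all those of controls and 7 weeks. Score and group can therefore hardly be told apart in these 2 comparisons. In myocardium itself PHOSPHO1 stood at 17.8, 15.9 and 8.11 CPM in controls, above every control valve. Whether heart muscle cells were the source of PHOSPHO1 reads in valve was not tested.

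**Figure D3:**
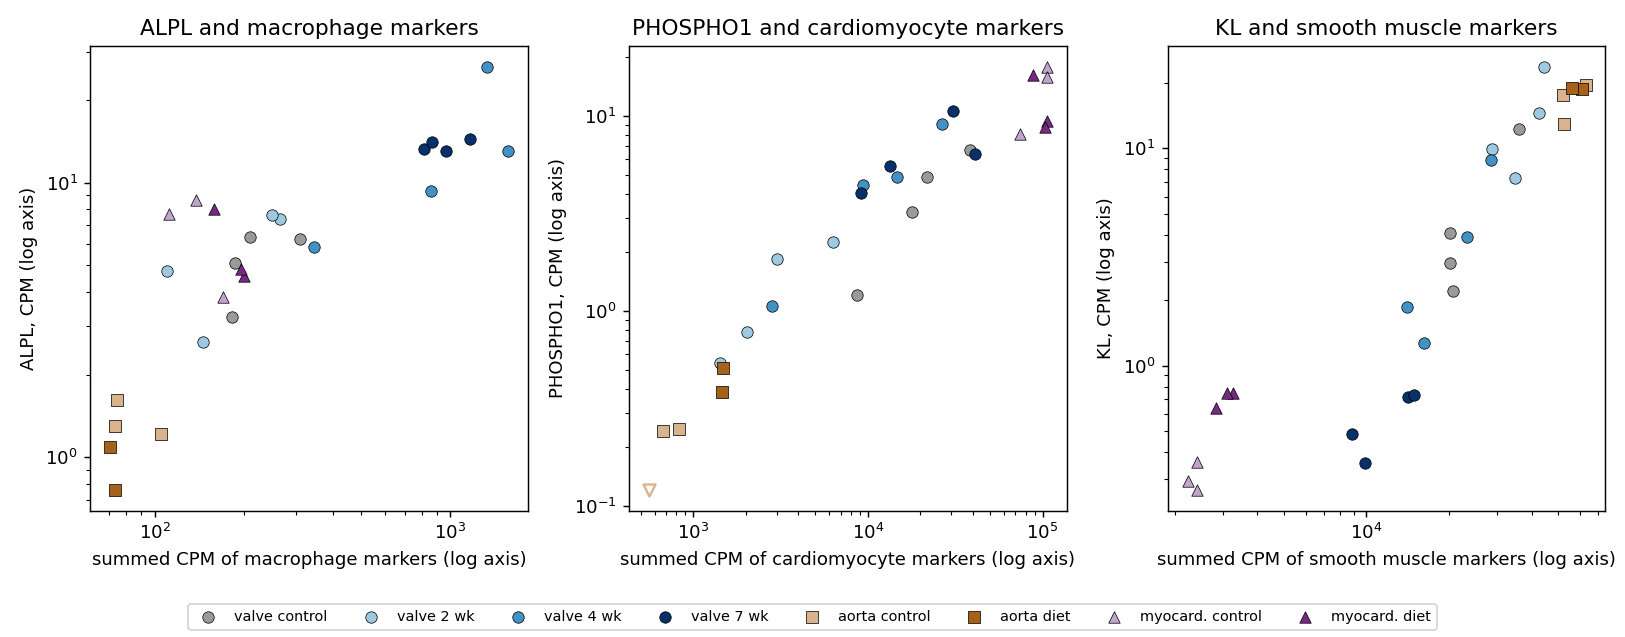
CPM of ALPL, PHOSPHO1 and KL (log axes) against the summed CPM of macrophage, cardiomyocyte and smooth muscle markers in the 27 libraries, coloured by group, with a library at 0 counts as an open triangle. The 7-week valves have ALPL at 13.0 to 14.4 CPM with macrophage sums of 815 to 1166, and KL at 0.355 to 0.729 CPM with smooth muscle sums of 8835 to 14924.

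ENPP1, the enzyme that makes pyrophosphate from ATP, was measured at 11.1, 9.53, 13.1 and 3.66 CPM in control valves. After 2 weeks the levels were 21.5, 25.3, 11.4 and 11.001 CPM, with replicates 1 and 2 above all controls and the others among them. After 4 weeks they were 7.51, 9.13, 13.4 and 8.11 CPM, and after 7 weeks 18.7, 4.73, 9.54 and 10.4 CPM. The log2 fold change was 0.86 ± 0.37 at 2 weeks (adjusted p = 0.257), -0.14 ± 0.37 at 4 weeks and 0.14 ± 0.37 at 7 weeks (adjusted p = 0.836). ENPP1 therefore passed at none of the 3 times, with groups that overlapped at each. Between 2 and 7 weeks it was -0.71 ± 0.37 (adjusted p = 0.159).

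The ratio of ALPL counts to ENPP1 counts sets the enzyme that splits pyrophosphate against the one that makes it within a library, and does not depend on scaling between libraries. Since the 2 transcripts differ in length, only its change between groups can be read. Its log2 value (0.5 added to each count) averaged -0.73 ± 1.15 (SD, n = 4) in control valves, -1.64 ± 1.05 after 2 weeks, 0.33 ± 0.86 after 4 and 0.50 ± 0.81 after 7 weeks. The 7-week values of -0.52 to 1.47 overlapped the control values of -1.996 to 0.79, of which the highest was replicate 4 with 78 ALPL counts and 45 ENPP1 counts. The difference of 1.23 between 7 weeks and control was of the size of the spread (pooled SD 0.99). The 7-week and 2-week means differed by 2.14 (pooled SD 0.94), and the lowest 7-week value (-0.515) lay just above the highest 2-week value (-0.523). In aorta the ratio was far lower, at -4.44 to -2.87 in the 3 controls and -5.39 to -5.17 in the 2 diet libraries, and in myocardium it was -1.22 to 0.32 and -1.36 to 1.304.

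**Figure D4:**
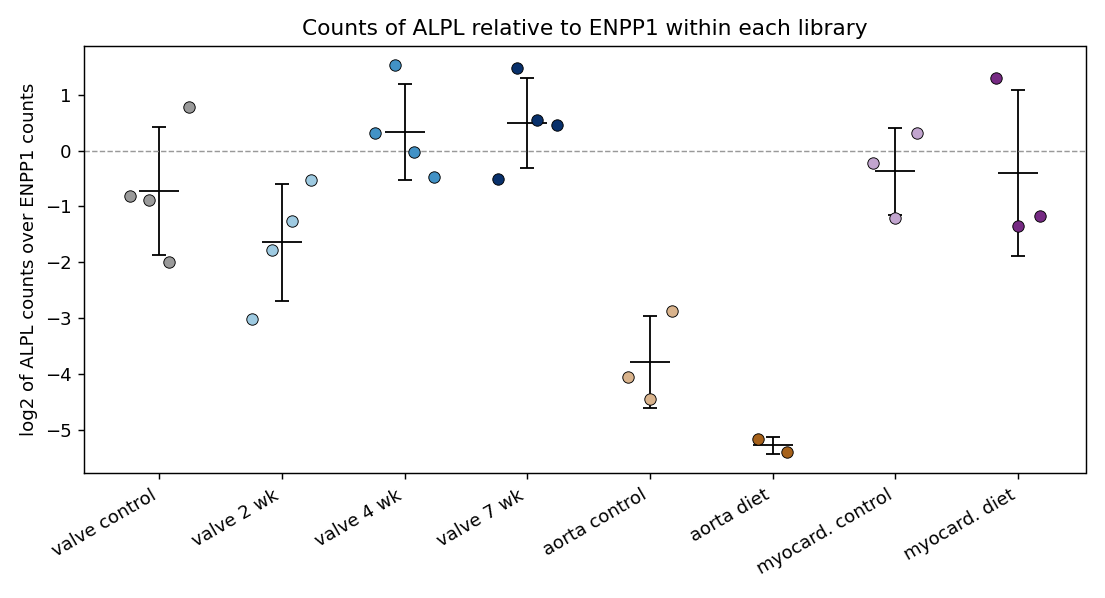
Log2 of ALPL counts over ENPP1 counts in each library (points) by group, with the group mean and SD as bars and a dashed line at equal counts. Valve means run from -1.64 at 2 weeks to 0.50 at 7 weeks, where both the 2-week and the 7-week libraries overlap the controls but not each other, while all aorta libraries lie at -2.87 or below.

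ANKH, the membrane protein through which cells release ATP and so supply pyrophosphate, was at 172, 175, 173 and 135 CPM in control valves. After 2 weeks it was 195, 222, 213 and 219.7 CPM, and after 4 weeks 239, 260.3, 331 and 215 CPM, so that all 8 libraries lay above all controls. After 7 weeks it was 419, 369 and 423 CPM in replicates 1, 3 and 4, the 3 highest of all libraries, and 137.5 CPM in replicate 2, within the control range. The log2 fold change was 0.36 ± 0.21 at 2 weeks (adjusted p = 0.440) and 0.51 ± 0.21 at 4 weeks (adjusted p = 0.298). At 7 weeks ANKH rose by 0.98 ± 0.21 (adjusted p = 0.0143), which is 1.97-fold. The 7-week call held in 7 of 8 fits that each left out a library and was lost without 7-week replicate 4 (0.83 ± 0.21, adjusted p = 0.0517). It was also lost in a fit of the 8 libraries of these 2 groups alone (0.99 ± 0.26, adjusted p = 0.0529).

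Between 2 and 7 weeks ANKH rose by 0.62 ± 0.21 (adjusted p = 0.0406), a call that held in 1 of 8 fits leaving out a library, the one without 7-week replicate 2. In the other 7 the adjusted p was 0.0653 to 0.133. With the macrophage score as a covariate the 7-week value of ANKH against control was 0.79 ± 0.41, and with the smooth muscle score it was 0.72 ± 0.32, neither past the threshold. The library that stood apart, 7-week replicate 2, also had the lowest NT5E of all valves and the highest cardiomyocyte sum (40880 CPM).

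NT5E, the ectonucleotidase that makes adenosine, stood at 154, 168, 125 and 103 CPM in control valves and at 162, 223, 239 and 189 CPM after 2 weeks. After 4 weeks the values were 94.7, 165, 248 and 175 CPM, and after 7 weeks 202, 49.5, 101.2 and 93.2 CPM. The 2-week libraries were the most uniformly high, and 3 of the 7-week libraries lay below all controls while replicate 1 lay above them. Against control NT5E did not pass at 2 weeks (0.56 ± 0.29, adjusted p = 0.358), at 4 weeks (0.14 ± 0.29) or at 7 weeks (-0.38 ± 0.29, adjusted p = 0.428). Between 2 and 7 weeks it fell by 0.93 ± 0.29 (adjusted p = 0.0278), from 203 ± 34.6 to 112 ± 64.7 CPM (SD, n = 4). That call was lost without 7-week replicate 2, 3 or 4 or 2-week replicate 3 (adjusted p = 0.0629 to 0.0776), and with the cardiomyocyte score as a covariate the value was -0.40 ± 0.32 (adjusted p = 0.532). Cardiomyocyte sums of 2 and 7 weeks did not overlap, so that score and the group can hardly be told apart here.

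ABCC6, a transporter best known from liver, was near the floor in all 27 libraries. It had 3 to 11 counts in control valves, 7 to 13 after 2 weeks, 0 to 16 after 4 weeks and 4 to 5 after 7 weeks. Summed over a group, the level was 0.469 CPM in control valves (95% Poisson interval 0.306 to 0.687, counting error only) and 0.343 CPM at 7 weeks (0.207 to 0.536). These intervals overlap, which is not a test of a difference. By edgeR's test the log2 fold change at 7 weeks was -0.33 ± 0.70 (adjusted p = 0.798). No difference was detected at this depth.

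SLC20A1, the PiT-1 phosphate carrier, was at 43.4, 46.6, 32.7 and 31.6 CPM in control valves and at 51.4, 50.0, 43.4 and 39.8 CPM after 2 weeks. After 4 weeks it was 49.1, 65.6, 82.8 and 41.4 CPM, and after 7 weeks 81.9, 32.04, 63.9 and 61.9 CPM. As for ANKH, 7-week replicates 1, 3 and 4 lay above all controls and replicate 2 did not. The log2 fold change was 0.25 ± 0.19, 0.46 ± 0.19 and 0.59 ± 0.19 at 2, 4 and 7 weeks, with an adjusted p of 0.0737 at 7 weeks, so that SLC20A1 missed the threshold. It passed at 7 weeks without replicate 2 of that group (0.74 ± 0.17, adjusted p = 0.0282), in 1 of the 8 fits leaving out a library, and by DESeq2 (0.60 ± 0.21, adjusted p = 0.0354). SLC20A2, the PiT-2 carrier, did not pass at any time, with values of -0.09 ± 0.28, -0.32 ± 0.28 and -0.33 ± 0.29. Its levels overlapped throughout, at 32.2 to 59.9 CPM in controls, 36.2 to 46.0 at 2 weeks, 26.9 to 54.5 at 4 weeks and 27.99 to 46.3 at 7 weeks.

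KL, the FGF23 co-receptor, was at 2.21, 12.2, 2.96 and 4.06 CPM in control valves, with replicate 2 far above the other 3. After 2 weeks it was 23.7, 9.95, 14.5 and 7.30 CPM, and after 4 weeks 1.85, 1.28, 3.92 and 8.84 CPM. After 7 weeks it was 0.718, 0.355, 0.729 and 0.485 CPM, on 11, 3, 11 and 8 counts, below every other valve library. Summed over the 4 libraries of a group, 33 counts at 7 weeks gave 0.596 CPM (95% Poisson interval 0.410 to 0.837), against 312 counts and 5.62 CPM in controls (5.02 to 6.28). These intervals leave out the spread between animals, and 191 of the 312 control counts came from replicate 2. In replicate 2 of 7 weeks the level equalled the floor of 3 counts.

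The log2 fold change of KL against control was 1.41 ± 0.59 at 2 weeks (adjusted p = 0.239) and -0.53 ± 0.59 at 4 weeks. At 7 weeks KL fell by 3.20 ± 0.70 (adjusted p = 0.0143). The call was lost without control replicate 2 (-2.49 ± 0.64, adjusted p = 0.0515) or without 7-week replicate 4 (-3.12 ± 0.80, adjusted p = 0.0504). From 2 to 7 weeks KL fell by 4.61 ± 0.71, or 24.4-fold (adjusted p = 0.00107), in each of the 8 fits leaving out a library. The step from 2 to 4 weeks was -1.94 ± 0.60 (adjusted p = 0.0793), and passed without 4-week replicate 4 (-2.74 ± 0.60, adjusted p = 0.0123). That from 4 to 7 weeks was -2.67 ± 0.69 (adjusted p = 0.195).

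KL moved with the smooth muscle markers. Control replicate 2 and 2-week replicate 1 had the highest smooth muscle sums of their groups (35945 and 44412 CPM) and also the highest KL. At 7 weeks 5 of 7 smooth muscle markers fell and 0 rose. With the mean log2 level of those markers as a covariate, a fit added after the data were seen, KL was -0.81 ± 0.57 at 7 weeks against control and -1.57 ± 0.63 at 7 against 2 weeks. Neither passed, and 0 of 15973 genes passed against control in that fit. The smooth muscle sums at 7 weeks lay below all those of controls and 2 weeks. Score and group can therefore hardly be told apart in these fits. Control aorta, with smooth muscle sums of 52146 to 62867 CPM, had KL at 12.9, 19.6 and 17.7 CPM. Whether smooth muscle cells were the source of KL reads was not tested.

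In the ascending aorta none of the 9 genes passed between diet and control (n = 2 and 3). Of the 7 tested 0 were called, where 0.159% of all genes were called. ENPP1 alone had an unadjusted p under 0.05, beside 1768 of the 14435 genes tested, and DESeq2 called 0. ENPP1 was at 20.9, 28.99 and 12.1 CPM in controls and 40.4 and 33.4 CPM on diet, a log2 fold change of 0.89 ± 0.32 (adjusted p = 0.368). ALPL was at 1.22, 1.304 and 1.62 CPM in controls and 1.09 and 0.764 CPM on diet, on 12 to 21 counts (-0.53 ± 0.40, adjusted p = 0.606). KL was at 18.7 and 18.97 CPM on diet, within the control range (0.22 ± 0.20, adjusted p = 0.668). The diet and control libraries did not overlap for ENPP1, ALPL, NT5E and PHOSPHO1, beside 33.8% of all genes in this comparison of 2 with 3 libraries. PHOSPHO1 (0, 4 and 3 counts in controls, 6 and 8 on diet) and ABCC6 were too low to be tested. The cardiomyocyte sum moved the same way as PHOSPHO1, at 557 to 822 CPM in control and 1450.0 to 1472 CPM in diet aortas, and its part in the result was not tested. Of the diet aortas, 1 came from a 2-week valve animal, and the duration of the other is not given.

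In the myocardium none of the 9 genes passed either (n = 3 and 3). Of the 7 tested 0 were called, where 0.0848% of all genes were called. None had an unadjusted p under 0.05, beside 1252 of the 14151 genes tested, and DESeq2 called 0. NT5E had the largest difference, 0.49 ± 0.50 (adjusted p = 0.905), and ALPL was at -0.02 ± 0.39. KL, too low to be tested, had 5, 4 and 5 counts in controls and 13, 9 and 12 on diet. It was the single gene of the 9 whose groups did not overlap, beside 15.2% of all genes.

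The diet effect in 7-week valve was also tested against that in myocardium in a joint fit of 16068 genes. Of 8 genes tested 1 was called, where 0.423% of all genes were called: the effect on KL was lower in valve (log2 difference -4.53 ± 0.77, adjusted p = 0.0281). At an unadjusted p under 0.05 there were 4 of the 8, beside 2201 of the 16068 genes. The fit left out ABCC6. KL was too low to be tested in the myocardium alone. It entered the joint fit because the filter took valve and myocardium libraries together, and control valves held 31 to 191 KL counts. The myocardial side of this difference rested on the 4 to 13 KL counts per library given above. The KL call was lost without any of 6 libraries left out in turn, namely 7-week replicates 3 and 4, control valve replicate 4, control myocardium replicate 3 and diet myocardium replicates 2 and 3 (adjusted p = 0.0550 to 0.0844). With the animal as a random block in limma, since valve and myocardium libraries share animals, the call held. For ALPL the difference was 1.41 ± 0.46 (adjusted p = 0.183) and for ANKH 1.29 ± 0.48 (adjusted p = 0.252), so neither rise was shown to differ from the myocardium.

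Among control tissues the 9 genes were distributed unevenly. Between control valve and control aorta 4 of 8 tested differed, where 22.2% of all genes were called: ALPL and PHOSPHO1 were higher in valve, and KL and ENPP1 lower. ALPL was 3.44-fold higher in valve (1.78 ± 0.35, adjusted p = 0.00683), with all 4 valves above all 3 aortas. PHOSPHO1 was higher by 4.36 ± 0.84 (adjusted p = 0.00642) against an aorta with 7 counts in all. Of 11 cardiomyocyte markers 10 were also higher in control valve than in control aorta (median log2 fold change 6.02), and their part in this difference was not tested. With the animal as a random block in limma the PHOSPHO1 difference was 4.02 ± 1.62 (adjusted p = 0.101), so its call was lost.

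KL was 3.52-fold lower in valve than in aorta (-1.82 ± 0.46, adjusted p = 0.0199), and ENPP1 2.43-fold lower (-1.28 ± 0.39, adjusted p = 0.0411). The KL call was lost without control valve replicate 4 or aorta replicate 2 or 3 (adjusted p = 0.0547 to 0.0737), and the ENPP1 call in 5 of 7 fits that each left out a library (adjusted p = 0.0710 to 0.178). ANKH was at -0.70 ± 0.31 (adjusted p = 0.131), and passed in a fit of these 2 groups alone (adjusted p = 0.0148).

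Between control valve and control myocardium 5 of 8 differed, where 46.0% of all genes were called. NT5E was 43.98-fold higher in valve (5.46 ± 0.39, adjusted p = 7.86e-06), at 103 to 168 CPM against 1.79, 1.07 and 4.41 CPM in myocardium. KL was higher by 3.69 ± 0.63 (adjusted p = 0.00114) and SLC20A1 by 0.86 ± 0.23 (adjusted p = 0.0110), the latter lost without myocardium replicate 1 or 2 (adjusted p = 0.0543 to 0.0554). PHOSPHO1 (-2.18 ± 0.57, adjusted p = 0.0104) and SLC20A2 (-1.31 ± 0.34, adjusted p = 0.00977) were lower in valve. SLC20A2 was at 97.2, 101 and 44.5 CPM in the 3 control myocardium libraries, so replicate 3 overlapped the valves. ALPL missed the threshold (-0.72 ± 0.31, adjusted p = 0.0821) and passed without myocardium replicate 2 (-1.03 ± 0.29, adjusted p = 0.0233). The 2 phosphate carriers thus differed in opposite directions between these tissues.

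Between control aorta and control myocardium 7 of 8 differed, where 52.8% of all genes were called. NT5E (5.78 ± 0.41), KL (5.502 ± 0.66), ANKH (1.01 ± 0.34, adjusted p = 0.0286) and SLC20A1 (0.93 ± 0.24) were higher in aorta. PHOSPHO1 (-6.54 ± 0.87), ALPL (-2.51 ± 0.37) and SLC20A2 (-1.30 ± 0.37) were lower. The ANKH call was lost without aorta replicate 1 or 2 (adjusted p = 0.0564 to 0.0972). ENPP1 missed the threshold at 1.06 ± 0.43 (adjusted p = 0.0585) and passed without aorta replicate 3 (1.34 ± 0.43, adjusted p = 0.0295). Fold changes between tissues come from counts scaled by TMM over the 3 tissues, and so differ somewhat from ratios of the CPM values.

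Other genes of phosphate, pyrophosphate and mineral biology were taken from 6 lists of 76 genes without the 9. In the valve 65 of them were tested. At 7 weeks 7 rose and 2 fell, where 7.79% of all genes were called. At 4 weeks 2 rose and 0 fell (2.00% of all genes), which is near the background, and at 2 weeks 0 rose and 0 fell. From 2 to 7 weeks 16 rose and 6 fell, where 26.7% of all genes were called, among them SLC37A2 (3.00 ± 0.46, adjusted p = 0.00107) and BGLAP (-2.54 ± 0.52, adjusted p = 0.00389), each called in all 8 fits leaving out a library. In aorta (57 tested) and in myocardium (50 tested) 0 passed between diet and control.

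In the list of the klotho and FGF23 hormone axis, 1 of 14 tested genes rose and 1 fell at 7 weeks (median 0.15, all genes -0.01). FGF23, the phosphate-lowering hormone of bone that acts through KL, rose by 5.02 ± 1.21 on the log2 scale (adjusted p = 0.0231). It had 0 to 4 counts in control valves, 0 to 38 after 2 weeks, 14 to 50 after 4 and 22 to 252 after 7 weeks, so its fold change rests on a control level at the floor. Of its 341 counts at 7 weeks 252 came from replicate 4, and without that library the log2 value was 3.83 ± 1.16 (adjusted p = 0.0835). PHEX, a bone endopeptidase whose loss raises FGF23, fell by 2.05 ± 0.60 (adjusted p = 0.0494), from 17 to 82 counts in controls to 2 to 26 at 7 weeks. The FGF23 call was also lost without control replicate 2 or 3 (adjusted p = 0.0692 to 0.0698), and PHEX held in 2 of 8 such fits. Between 2 and 7 weeks STC1, a secreted regulator of phosphate and calcium, rose by 1.86 ± 0.45 (adjusted p = 0.00941), in all 8 fits leaving out a library.

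In the list of matrix vesicle and mineral nucleation genes, 1 of 10 rose and 1 fell at 7 weeks (median 0.53). IBSP, bone sialoprotein, rose by 3.15 ± 0.88 (adjusted p = 0.0405) on 6 to 64 counts, against 0 to 6 in controls, and held in 2 of 8 fits leaving out a library. BGLAP, osteocalcin, fell by 2.52 ± 0.52 (adjusted p = 0.0120), from 7.25 ± 3.41 CPM (SD, n = 4) to 1.28 ± 0.262, and held in all 8. Of 5 secreted mineral inhibitors tested 2 rose (median 0.66). AHSG, fetuin-A, which is made in liver, rose by 5.39 ± 1.33 (adjusted p = 0.0256). Control valves held 0 to 2 AHSG counts each, so its fold change rests on a control level at the floor. Of its 209 counts at 7 weeks 176 came from replicate 3, and without that library the log2 value was 3.26 (adjusted p = 0.0927). The AHSG call was also lost without any 1 of the controls (adjusted p = 0.0528 to 0.0771). SPP1, osteopontin, rose by 2.02 ± 0.40 (adjusted p = 0.00979). None of 6 osteogenic regulators passed at 7 weeks against control (median 0.23). Between 2 and 7 weeks 1 of the 6 rose and 1 fell, where 26.7% of all genes were called.

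Of 6 phosphate transporters tested 1 rose at 7 weeks (median 0.33). SLC37A2, a sugar phosphate exchanger of macrophages and osteoclasts, rose by 2.78 ± 0.46 (adjusted p = 0.00633), from 2.74 to 10.8 CPM in controls to 30.5 to 54.2 CPM. It had already risen at 4 weeks (2.81 ± 0.46, adjusted p = 0.0192), a call lost without 4-week replicate 3 or control replicate 2, 3 or 4 (adjusted p up to 0.0945), whereas the 7-week call held in all 8 such fits. Of 24 genes of nucleotide and pyrophosphate turnover 2 rose (median 0.02): ABCC3, a transporter of the ABCC6 family, by 2.03 ± 0.42 (adjusted p = 0.0117) and SLC29A1, a nucleoside carrier that takes up adenosine, by 0.73 ± 0.16 (adjusted p = 0.0170), the latter lost without 7-week replicate 4 (adjusted p = 0.0541). ABCC3 also rose at 4 weeks (1.93 ± 0.41, adjusted p = 0.0287), a call that held in 3 of 8 fits leaving out a library and was lost on leaving out replicates 2 or 3 of the 4-week group, or any control but replicate 1. With the macrophage score as a covariate, SLC37A2 at 7 weeks was 0.39 ± 0.36 and ABCC3 was -0.02 ± 0.43.

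**Figure D5:**
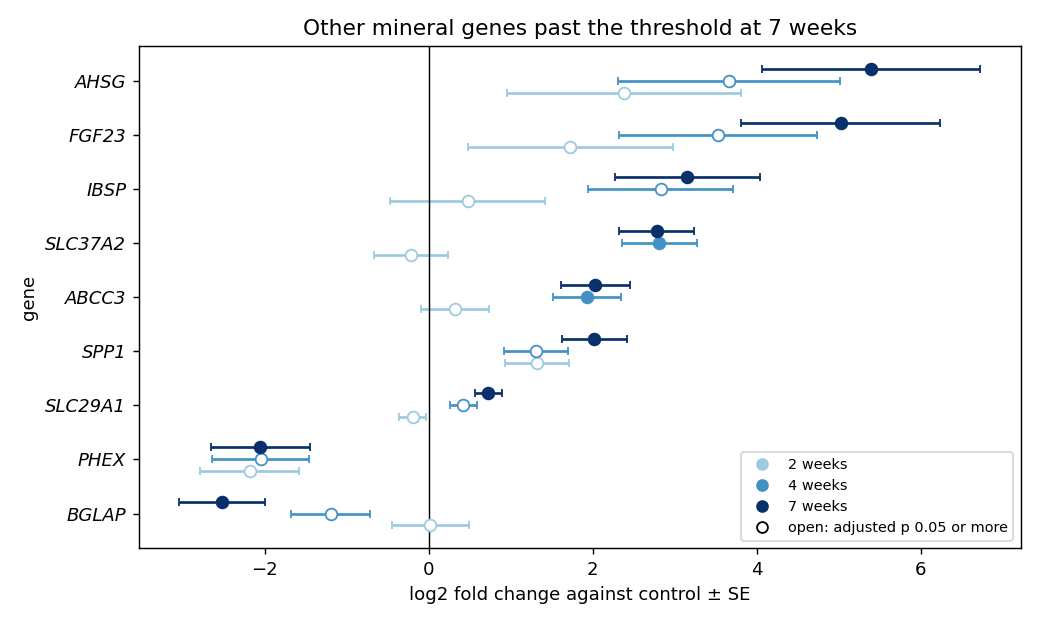
Log2 fold change against control ± SE at 2, 4 and 7 weeks for the 9 other genes of the lists that passed at 7 weeks, filled where the adjusted p was under 0.05. SLC37A2 and ABCC3 passed at 4 and 7 weeks, and FGF23 and AHSG had the largest SE (1.21 and 1.33 at 7 weeks).

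The genes whose log2 CPM followed each member most closely over the 16 valve libraries are given as a description, since the points share library, depth and tissue mix. ALPL was most like RNASE6, a ribonuclease of myeloid cells, PLTP, a phospholipid transfer protein, and TBXAS1, thromboxane synthase (Pearson r = 0.95, 0.94 and 0.94; 0.92, 0.86 and 0.87 after the group means were removed). KL was most like TLN1, talin, MCU, the mitochondrial calcium uniporter, and NIBAN1 (r = 0.97, 0.97 and 0.96). PHOSPHO1 was most like ART3 (0.96) and the heart muscle genes MYZAP and CSRP3 (both 0.95). NT5E was most like LRP12, SS18 and SPTLC1 (0.97, 0.96 and 0.96). ANKH and SLC20A1 shared MMP14, a membrane collagenase, among their nearest genes (0.85 and 0.92), beside SMAP2 and GAB3 for ANKH and FKBP15 for SLC20A1.

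ENPP1 was most like LRRC8C, ATP7A and SETD7 (0.91, 0.90 and 0.90), and SLC20A2 most like CASZ1, PPARA and RABGAP1L (0.92, 0.91 and 0.90). ABCC6, with few counts, had its nearest genes BEX4, YWHAG and USP49 at 0.75, 0.75 and 0.71. Among the members themselves, ANKH and SLC20A1 were the most alike (r = 0.83, and 0.705 after the group means were removed). ALPL and KL were the most opposed (r = -0.81 and -0.71).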

How the data were processed

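Bulk RNA-seq was measured in 27 libraries of 21 rabbits. Per the labels' protocols, RNA was extracted with Trizol, made into directional NEBNext Ultra II libraries and sequenced single-end on a NovaSeq. The submitters' processing notes name STAR 2.7.8a, RSEM 1.3.3, edgeR 3.42.4, and Trim Galore 0.6.6 with FastQC 0.11.9. What build, annotation and strand setting were used is not stated there, so reads of a gene and of an antisense partner cannot be told apart. The authors deposited expected counts per gene, 1 table per tissue, of which 10.1% of the valve values were not whole. A valve table without 346 genes the authors removed as myocardial held all 9 genes and served as an alternative.

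Expected counts were rounded. Genes were kept by edgeR's filterByExpr (minimum count 10, minimum total 15), scaled by TMM and tested with glmQLFit and glmQLFTest (edgeR 4.0.16, R 4.3.3), 2-sided. P-values were adjusted by Benjamini-Hochberg over every gene tested, with a threshold of 0.05. The valve fit held all 4 valve groups, aorta and myocardium were fitted alone, and control tissues together. The main edgeR fits, DESeq2 in valve and limma between control tissues were tried on simulated counts. The other alternatives, such as the replicate block and the marker scores, were not. Libraries held 8458453 to 19998954 counts, and no pair of libraries of a group was alike within counting noise. Levels are CPM of the library total, and Poisson intervals cover counting error only. P-values measure the spread between animals. Some animals gave more than 1 tissue, so limma 3.58.1 with the animal as a random block was an alternative between tissues.

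Named are the 9 members, the 3 named genes most correlated with each over 16 valve libraries (log2 CPM, prior count 2), and up to 6 called genes of the pathway lists per comparison. In the comparisons between control tissues and between 2 and 7 weeks not all of these are printed. For SLC20A1, 1 of the 3 correlated genes is not reported here. Members, lists and rules were chosen with earlier results of these data known. Alternatives were DESeq2 1.42.0, other size factors, no filter, the replicate number as a block, only the groups compared, each library left out, and marker scores as covariates. The macrophage and smooth muscle scores were added after the data were seen. No sequences or coordinates are given, since no genome of the files' build was used here.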

Additional observations from a re-analysis of the deposited data

Results flagged for a closer look

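ANKH in control valve replicate 4 stood apart from the other 3 controls. It was at 135 CPM against 172 to 175, and its gap to the nearest library was 0.927 of the group's range. In all 40 groups of a gene were tested this way, and chance flags about 1 in 20. Without that library the 7-week rise of ANKH was 0.91 ± 0.24 on the log2 scale (edgeR adjusted p = 0.0475).

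The diet effect on KL differed between 7-week valve and myocardium, by -4.53 ± 0.77 on the log2 scale (edgeR quasi-likelihood test of the interaction, adjusted p = 0.0281). KL had 33 counts over the 4 valve libraries at 7 weeks, and 14 and 34 counts over the 3 control and 3 diet myocardium libraries. In the myocardium alone KL was too low to be tested.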

How the results depend on the processing

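Of the values for single members, 730 kept direction and call when a library was left out, 45 lost the call, 6 gained it and 0 changed sign. Under the other alternatives 644 kept both, 27 lost the call, 13 gained it and 5 changed sign. Leaving out a library gave 0 to 1 called members at 4 weeks, 0 to 3 at 7 weeks, 0 to 2 between 4 and 2 weeks, 1 to 4 between 7 and 2 weeks, 0 to 1 for the interaction and 2 to 4 between control valve and aorta. DESeq2 called 1 member at 4 weeks, 2 between 4 and 2 weeks and 1 between 7 and 4 weeks. Between 7 and 2 weeks, 3 members were called with the replicate block, 3 with the cardiomyocyte score and 3 with only the 2 groups. With the macrophage or the smooth muscle score as covariate 0 members and 0 of all genes were called at 7 weeks and between 7 and 2 weeks.

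With the macrophage score these values changed sign: at 7 weeks ALPL -0.25, ABCC3 -0.022, RNASE6 -0.61, CASZ1 0.89 and MCU 0.10, at 4 weeks ABCC3 -0.094, between 4 and 2 weeks ABCC3 -0.53, and between 7 and 2 weeks ALPL -0.35 and FGF23 -0.66. With the smooth muscle score ALPL was -0.011 and FGF23 -1.04 between 7 and 2 weeks. With the cardiomyocyte score PHOSPHO1 was 0.74 and SLC20A1 -0.27 at 2 weeks. Whether these scores stand for cell number was not tested. Macrophage and smooth muscle sums of 7-week valves overlapped neither controls nor 2 weeks. Cardiomyocyte sums of 2-week valves overlapped neither controls nor 7 weeks. Those scores and the group can therefore hardly be told apart, and no conclusion is drawn from the lost calls or signs.

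Replicate numbers did not pair the libraries (median correlation of same-numbered valve libraries -0.067). With the number as a block ALPL at 7 weeks was 1.33 (adjusted p = 0.0840), and ANKH 0.59 (0.0657) and NT5E -0.93 (0.0543) between 7 and 2 weeks. Over all genes the block gave 0, 5 and 663 calls at 2, 4 and 7 weeks, against 4, 319 and 1245. DESeq2 gave 965, 771 and 2222, fits of only the 2 groups 431, 2 and 897, and the cardiomyocyte score 0, 0 and 1559. Depth limits ABCC6, KL at 7 weeks and in myocardium, and PHOSPHO1 in aorta, all near 3 counts in some libraries.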
